A study of Mus musculus with 21 samples.

Results

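The genes examined here are 10 genes by which long-term hematopoietic stem cells (LT-HSC) are recognised, followed by name through the expression table of the study. They are 10 of its 28987 gene identifiers, and each matched exactly 1 identifier. Slamf1, Procr, Clca3a1 and Neo1 encode surface or membrane-associated proteins. Mecom, Hlf and Meis1 encode transcription factors. Fgd5, Ctnnal1 and Matn4 encode a guanine nucleotide exchange factor, a catenin-like protein and a matrix protein.

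LT-HSC sit at the top of blood formation, divide rarely and can rebuild all blood lineages after transplantation. Multipotent progenitors (MPP) are their more proliferative offspring, and the loss of stem cell surface proteins and transcription factors along this step is how the populations are told apart. Retinoid X receptors (RXR) belong to the nuclear receptors and, together with other members of that family, bind DNA at pairs of a short half-site.

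The study profiled sorted mouse bone marrow cells by bulk RNA sequencing in 21 libraries, 3 in each of 7 groups. In batch 1, knockout LT-HSC and knockout MPP carried VaviCre+Rxrabfl/fl (spelled so in the labels), that is, floxed Rxra and Rxrb alleles with Cre under the blood-cell promoter Vav1, and floxed control LT-HSC and MPP carried Rxrabfl/fl. In batch 2, which held LT-HSC only, there were libraries with Vav1Cre+Rxrabfl/fl Myclfl/+ (called Mycl-allele here; their descriptions say Myc), libraries labelled knockout with Vav1Cre+Rxrabfl/fl, and Cre controls with Vav1Cre+WT. The control genotype thus changed with the batch, and the 2 cannot be told apart. Each library came from pooled animals, no animal age was given, and the MPP were MPP3 and MPP4 cells per the extraction protocol. Cre under this promoter acts in blood-forming cells and their offspring, and by the labels no group had 1 of the 2 receptors targeted alone.

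Values are TPM, a transcript abundance scaled to transcript length, so levels can be compared between genes. How many reads stand behind each value cannot be read from TPM, so no interval for counting is given. Deposited TPM summed to between 691094 and 918942 per library over the identifiers present, which is short of the full TPM scale. Of that full scale, not of these sums, 1 identifier, ENSMUSG00000089855, took between 10.6% and 51.8%. Its share was highest in floxed control LT-HSC library 2. All levels are therefore given as deposited and, beside each test, also after rescaling, in which each library was divided by the median ratio of its genes to their geometric mean. For the rescaled levels printed here the factors were taken over all 21 libraries, and were 1.11 to 1.42 in knockout LT-HSC and 0.646 to 0.966 in floxed control LT-HSC. For tests and for shares of genes without overlap they were computed anew within the libraries of each fit. Of the targeted genes, Rxra averaged 3.14 ± 0.251 TPM in knockout LT-HSC and 3.8 ± 1.4 TPM in floxed control LT-HSC. Rxrb had 9.3 to 12.6 TPM in knockout and 7.52 to 14.9 TPM in floxed control LT-HSC, which overlapped. It had 9.55 to 13.6 TPM in knockout MPP, against 15.8 to 18.8 TPM in floxed control MPP. In batch 2, Rxrb had 10.6 to 12.8 TPM in the libraries with Vav1Cre+Rxrabfl/fl and 6.4 to 8.88 TPM in Mycl-allele LT-HSC. Cre controls had 14.5 to 16 TPM. In the splice table, the share of reads on an exon-skipping Rxra junction (chr2:27741203-27748612) was 0.938 in the knockout LT-HSC library with a value, and 1 and 0.5 in the knockout MPP libraries with one. It was 0.647, 0 and 1 in Mycl-allele LT-HSC. In the batch 2 libraries with Vav1Cre+Rxrabfl/fl it was 0, 0.0127 and 0, which for Rxra goes against their label, and these are called labelled knockout throughout. The controls were at 0 apart from 0.1 in floxed control LT-HSC library 2.

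The results turn on 5 of the 10 genes, 4 that differed with genotype on both scales and Mecom, whose alternative start sites were measured, and the 250 bases before their start sites are shown for that reason. The sequences are from RefSeq, build GRCm38, read 5′ to 3′ on the gene's own strand, with any match to a searched motif in capitals.
Slamf1, chr1:171766882-171767131, plus strand: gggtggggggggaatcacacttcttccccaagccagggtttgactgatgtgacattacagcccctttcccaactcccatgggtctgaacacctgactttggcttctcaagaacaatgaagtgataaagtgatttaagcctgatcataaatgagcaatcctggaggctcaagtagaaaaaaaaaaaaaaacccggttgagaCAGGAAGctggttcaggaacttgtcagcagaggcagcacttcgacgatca
Clca3a1, chr3:144760978-144761227, minus strand: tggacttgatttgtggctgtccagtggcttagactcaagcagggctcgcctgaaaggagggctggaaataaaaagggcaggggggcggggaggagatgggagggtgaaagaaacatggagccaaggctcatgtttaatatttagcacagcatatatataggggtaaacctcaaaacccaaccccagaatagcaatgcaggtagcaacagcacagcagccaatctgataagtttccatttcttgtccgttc
Neo1, chr9:59036442-59036691, minus strand: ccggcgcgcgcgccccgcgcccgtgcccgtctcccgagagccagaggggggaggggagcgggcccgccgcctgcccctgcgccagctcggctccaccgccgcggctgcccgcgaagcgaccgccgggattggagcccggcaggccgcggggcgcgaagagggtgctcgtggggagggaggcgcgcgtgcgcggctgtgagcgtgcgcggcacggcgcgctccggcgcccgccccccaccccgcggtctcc
Matn4, chr2:164405161-164405410, minus strand: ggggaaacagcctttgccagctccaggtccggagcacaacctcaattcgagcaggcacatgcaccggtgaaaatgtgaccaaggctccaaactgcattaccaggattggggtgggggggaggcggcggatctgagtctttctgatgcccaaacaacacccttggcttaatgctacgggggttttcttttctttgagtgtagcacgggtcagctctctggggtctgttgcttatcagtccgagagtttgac
Mecom upstream start, chr3:30509760-30510009, minus strand: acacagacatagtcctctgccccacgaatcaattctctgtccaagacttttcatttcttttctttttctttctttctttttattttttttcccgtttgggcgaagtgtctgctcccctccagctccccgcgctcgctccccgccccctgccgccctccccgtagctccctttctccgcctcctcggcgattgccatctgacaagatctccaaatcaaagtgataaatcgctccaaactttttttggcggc
Mecom downstream start, chr3:30013205-30013454, minus strand: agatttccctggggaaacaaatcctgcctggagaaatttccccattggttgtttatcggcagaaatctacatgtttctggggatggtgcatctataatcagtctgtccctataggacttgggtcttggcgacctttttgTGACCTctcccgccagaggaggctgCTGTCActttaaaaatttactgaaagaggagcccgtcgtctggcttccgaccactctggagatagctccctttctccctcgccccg
The motifs searched on both strands were the nuclear receptor half-site AGGTCA, the MEIS core TGACAG, the GATA site AGATAA, the PAR bZIP sites TACGTAA and TATGTAA, the ETS site CAGGAAG and the RUNX site TGTGGT. None of these overlapped another in the windows of the 10 genes. Among all 32851 RefSeq mouse promoter windows of this length, AGGTCA stood in 14%, TGACAG in 15.9%, AGATAA in 9.99%, TACGTAA in 0.432%, TATGTAA in 2.51%, CAGGAAG in 10.8% and TGTGGT in 14%. The downstream Mecom window held AGGTCA on the opposite strand (capitals TGACCT, 111 bases before the start) and TGACAG on the opposite strand (capitals CTGTCA, 86 bases before it). The Slamf1 window held CAGGAAG 50 bases before the start. The Clca3a1, Neo1 and upstream Mecom windows and the Matn4 window shown held no match. A second annotated Matn4 start, with the window chr2:164404819-164405068, had CAGGAAG 160 bases before it. Of the windows not printed, that of Procr held AGGTCA on the opposite strand 218 bases before the start, that of Fgd5 held TGACAG 226 bases before it, and that of Meis1 held TGTGGT 166 bases before it. The Hlf and Ctnnal1 windows held none. The Neo1 window was the richest in G and C of those printed, at 83.2%, against 47.2% in the Slamf1 window.

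The 10 genes spanned a wide range of levels. In knockout LT-HSC, Mecom averaged 173 ± 32.3 TPM, Meis1 158 ± 25.5 TPM and Hlf 143 ± 11.3 TPM (SD, n = 3), which placed them at ranks 350, 375 and 413 of the 14623 genes with a mean of at least 1 TPM. Clca3a1 ranked 950 there and Procr 1105, Slamf1 2588, Fgd5 3490, Ctnnal1 3586 and Neo1 4679. Matn4 was the least abundant, at rank 9940. In floxed control LT-HSC the 3 transcription factors again led, Meis1 at rank 493, Hlf at 494 and Mecom at 540 of 13069 genes, whereas Clca3a1 ranked 4480, Neo1 9155 and Matn4 12740. In MPP the 3 transcription factors again led, Meis1 at rank 936, Hlf at 1265 and Mecom at 1750 of 13675 genes in knockout MPP, and at 858, 1022 and 1986 of 13549 genes in floxed control MPP. Slamf1, Neo1 and Matn4 averaged below 1 TPM in both MPP groups, and Clca3a1 averaged below 1 TPM in floxed control MPP only.

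**Figure D1:**
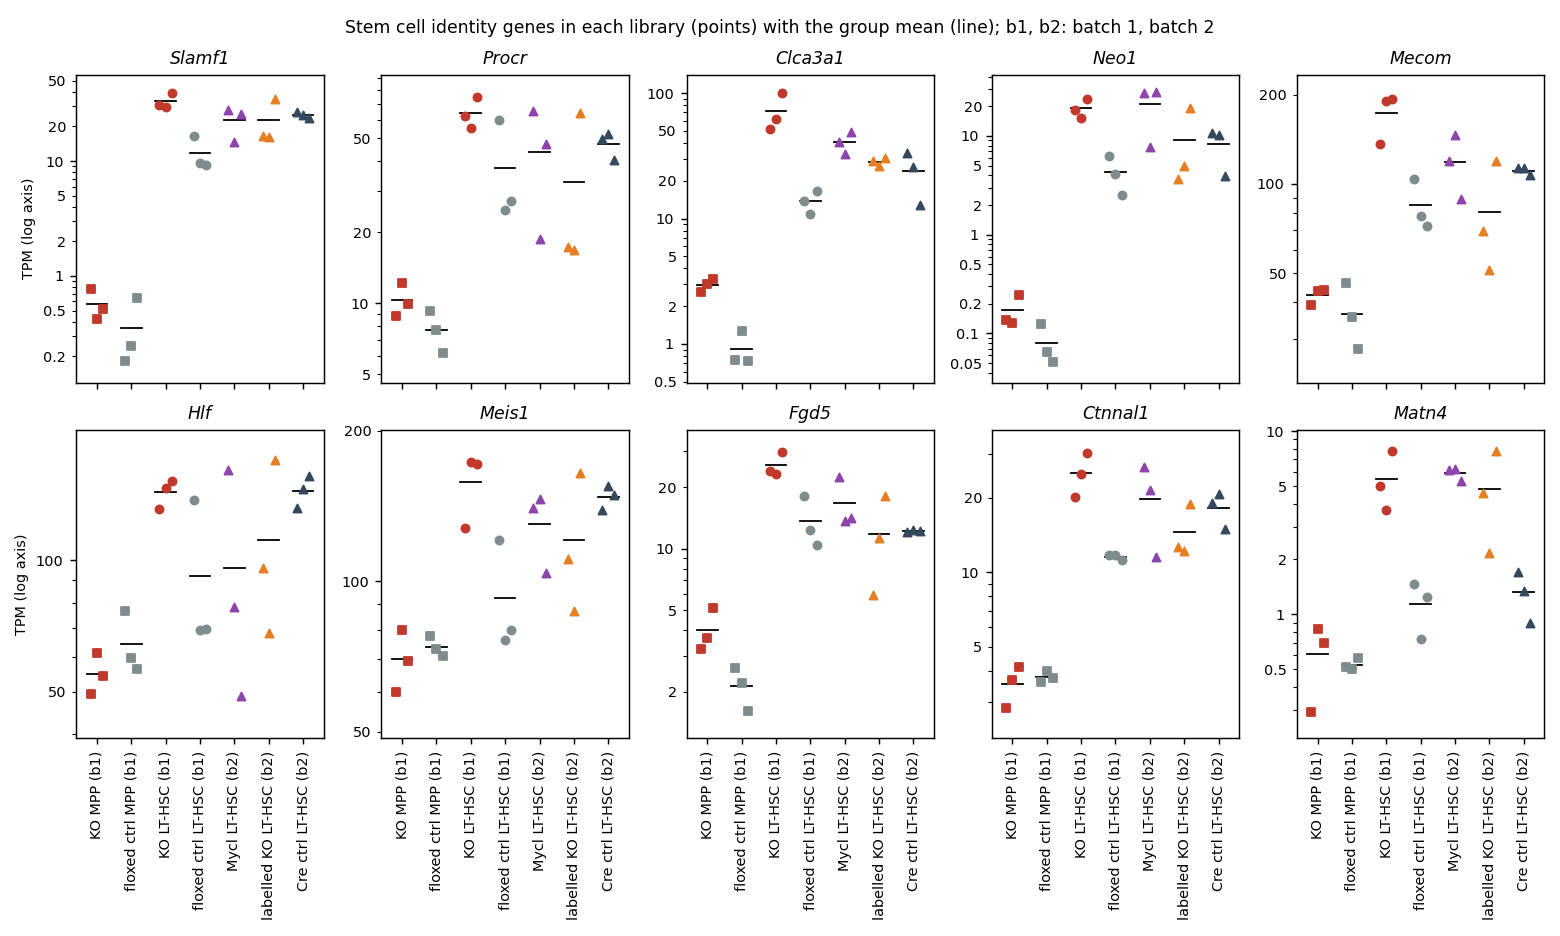
Deposited TPM (log axis) of the 10 genes in each of 21 libraries, points, with the mean of each group of 3, line; circles and squares are batch 1, triangles batch 2. Slamf1, Clca3a1 and Neo1 lie far lower in both MPP groups than in any LT-HSC group, whereas the LT-HSC and MPP ranges of Hlf overlap.

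In LT-HSC of batch 1, all 10 genes were higher in knockout than in floxed control cells on deposited TPM, and 4 of them, Slamf1, Clca3a1, Neo1 and Matn4, were also higher after rescaling. Clca3a1 differed most, 4.77-fold on the scale of TPM plus 1, and Hlf least, 1.63-fold. On deposited TPM, 44.6% of all genes tested also rose, so the count of 10 has to be read against that share. After rescaling, 2.2% of all genes rose. The median log2 difference of the 10 genes was 1.03 on deposited TPM and 0.39 after rescaling, against 0.52 and -0.03 over all genes tested. The test was limma on log2(TPM + 1) with Benjamini-Hochberg adjustment over all genes and a call at an adjusted p under 0.05. The added 1 makes the fold change of a low gene smaller than the ratio of its TPM values.

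Among the surface genes, Slamf1 (ENSMUSG00000015316, chr1:171767131-171801184, GRCm38) encodes CD150, a receptor of the SLAM family whose presence is a standard mark of mouse LT-HSC. It had 30.9, 29.6 and 39.3 TPM in knockout LT-HSC, against 16.4, 9.59 and 9.32 TPM in floxed control LT-HSC. Every knockout library was above every floxed control library. The log2 difference was 1.46 ± 0.23 (SE, limma adjusted p = 0.00244) on deposited TPM and 0.84 ± 0.21 (limma adjusted p = 0.0423) after rescaling. On the rescaled scale the call for Slamf1 was lost without knockout library 1 (limma adjusted p = 0.0574), knockout library 2 (0.0685), knockout library 3 (0.201), floxed control library 2 (0.0642) or floxed control library 3 (0.0791). It held without floxed control library 1 (limma adjusted p = 0.0391), so on that scale it rests on each of the 5 others.

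Procr (ENSMUSG00000027611, chr2:155751125-155755478) encodes the endothelial protein C receptor, EPCR, which also marks LT-HSC. Its values were 62.5, 55.2 and 74.8 TPM in knockout LT-HSC, against 60.1, 24.8 and 27.2 TPM in floxed control LT-HSC. The ranges overlapped because floxed control library 1 lay within the knockout range. Procr differed by 0.87 ± 0.28 on the log2 scale (limma adjusted p = 0.0236) on deposited TPM and by 0.23 (adjusted p = 0.558) after rescaling. On deposited TPM its call was lost without knockout library 2 (limma adjusted p = 0.0539), knockout library 3 (0.0891), floxed control library 2 (0.0968) or floxed control library 3 (0.0676).

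Clca3a1 (ENSMUSG00000056025, chr3:144729677-144760977), a mouse member of the family of calcium-activated chloride channel regulators, had 51.8, 62.5 and 99.9 TPM in knockout LT-HSC, against 13.8, 10.9 and 16.7 TPM in floxed control LT-HSC. The lowest knockout library was well above the highest floxed control library. Its log2 difference was 2.26 ± 0.24 (limma adjusted p = 2.6e-04) on deposited TPM and 1.63 ± 0.19 (limma adjusted p = 0.00191) after rescaling. Clca3a1 kept its call on both scales whichever of the 6 libraries was left out, with a rescaled difference of 1.40 to 1.76. Its close paralog Clca3a2, with which short reads could be exchanged, had a mean of 1.66 TPM in knockout LT-HSC and 0.317 TPM in floxed control LT-HSC, far below Clca3a1 in both.

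Neo1 (ENSMUSG00000032340, chr9:58874679-59036614) encodes neogenin, a receptor for netrins and repulsive guidance molecules. It had 18.3, 15.3 and 23.9 TPM in knockout LT-HSC, against 6.2, 4.15 and 2.55 TPM in floxed control LT-HSC, again with no overlap. The log2 difference was 1.96 ± 0.24 (limma adjusted p = 7.2e-04) on deposited TPM. After rescaling it was 1.38 ± 0.25 (limma adjusted p = 0.0175), a call that was lost without knockout library 3 (adjusted p = 0.113).

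The 3 transcription factor genes rose on deposited TPM, and none of them passed the test after rescaling. Mecom (ENSMUSG00000027684, chr3:29951296-30509759) encodes the zinc finger proteins MDS1-EVI1 and EVI1, which maintain stem cells. It had 136, 191 and 193 TPM in knockout LT-HSC, against 104, 77.8 and 72.3 TPM in floxed control LT-HSC. Its groups did not overlap on either scale, and the log2 difference was 1.02 ± 0.22 (limma adjusted p = 0.00613) on deposited TPM and 0.37 (adjusted p = 0.204) after rescaling. Hlf (ENSMUSG00000003949, chr11:90336535-90390917), a bZIP factor of the PAR family, had 131, 147 and 152 TPM in knockout LT-HSC, against 138, 69.2 and 69.5 TPM in floxed control LT-HSC. Floxed control library 1 was above the lowest knockout library, and the log2 difference was 0.70 ± 0.24 (limma adjusted p = 0.0311) on deposited TPM and 0.05 (adjusted p = 0.88) after rescaling. Meis1 (ENSMUSG00000020160, chr11:18880428-19019651), a homeodomain cofactor of HOX proteins, had 128, 173 and 172 TPM in knockout LT-HSC, against 121, 76.3 and 79.9 TPM in floxed control LT-HSC. The knockout libraries were all higher, by a narrow margin over floxed control library 1, and the log2 difference was 0.78 ± 0.21 (limma adjusted p = 0.012) on deposited TPM and 0.13 (adjusted p = 0.557) after rescaling. On deposited TPM the call for Hlf was lost without knockout library 2 (limma adjusted p = 0.094), knockout library 3 (0.0963), floxed control library 2 (0.0965) or floxed control library 3 (0.092). That for Meis1 was lost without knockout library 2 (limma adjusted p = 0.0581) or knockout library 3 (0.0585).

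Of the remaining genes, Matn4 (ENSMUSG00000016995, chr2:164389393-164405160) encodes matrilin-4, an extracellular matrix protein that in mice restrains stem cell expansion under acute stress. It had 4.98, 3.69 and 7.79 TPM in knockout LT-HSC, against 1.46, 0.73 and 1.24 TPM in floxed control LT-HSC, without overlap. Its log2 difference was 1.56 ± 0.24 (limma adjusted p = 0.00223) on deposited TPM and 1.13 ± 0.21 (limma adjusted p = 0.0198) after rescaling. The rescaled call was lost without knockout library 3 (limma adjusted p = 0.12).
Fgd5 (ENSMUSG00000034037, chr6:91978827-92076005) encodes an exchange factor for the GTPase CDC42 and is used to label LT-HSC in reporter mice. It had 24.1, 23.1 and 29.8 TPM in knockout LT-HSC, against 18, 12.4 and 10.4 TPM in floxed control LT-HSC, all knockout libraries being higher. The log2 difference was 0.89 ± 0.22 (limma adjusted p = 0.00954), lost without knockout library 3 (adjusted p = 0.0517), and 0.27 (adjusted p = 0.412) after rescaling. Ctnnal1 (ENSMUSG00000038816, chr4:56810935-56865375) encodes alpha-catulin, another reporter gene for these cells. It had 20.1, 24.9 and 30.3 TPM in knockout LT-HSC, against 11.7, 11.7 and 11.2 TPM in floxed control LT-HSC, where the 3 libraries were nearly equal. Its log2 difference was 1.04 ± 0.18 (limma adjusted p = 0.00364) on deposited TPM and 0.42 (adjusted p = 0.125) after rescaling.

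Counting libraries instead of tests, 8 of the 10 genes had all knockout LT-HSC libraries above all floxed control libraries on deposited TPM, as did 48.2% of all genes. After rescaling there were 5 such genes, Slamf1, Clca3a1, Neo1, Mecom and Matn4, where 12.4% of all genes were of this kind. The rescaled values of Clca3a1 were 46.5, 43.9 and 74.5 TPM in knockout LT-HSC, against 14.3, 16.8 and 18.2 TPM in floxed control LT-HSC. Knockout library 3 held the highest deposited value of every one of these genes but Meis1, and without it 6 of the 10 kept their call on deposited TPM and 1, Clca3a1, after rescaling. Without floxed control library 2, the one with the dominant identifier, 8 genes kept the call as deposited and 4 had one after rescaling, Clca3a1, Neo1, Ctnnal1 and Matn4. In bulk libraries, fewer cells of a type and less RNA per cell cannot be told apart.

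Markers of other cells differed with the genotype too, and not all in the direction of the 10 genes. Of 8 erythroid markers, 4 fell in knockout LT-HSC on deposited TPM, where 0.58% of all genes fell, and 5 after rescaling, where 2.47% did, with a rescaled median of -1.46. All 8 reached 1 TPM in both groups, and their sum was 209 to 320 TPM in knockout and 230 to 642 TPM in floxed control LT-HSC, which overlapped. Of 13 MPP genes, 4 rose in knockout LT-HSC on deposited TPM, which is 30.8% and below the 44.6% of all genes. After rescaling 0 rose and 2 fell, where 2.47% of all genes fell. The sums of the MPP genes were apart, at 226 to 372 TPM in knockout and 94.3 to 191 TPM in floxed control LT-HSC. All sums here are on deposited TPM, and none were taken after rescaling. On that scale 48.2% of all genes had every knockout LT-HSC library above every floxed control library. A sum that is apart has to be read against that share. The other lists had calls in the higher direction only, on a scale on which 44.6% of all genes rose. Of 8 neutrophil markers 7 were tested, 4 rose on deposited TPM and none after rescaling, and the sum was 124 to 1349 TPM in knockout and 34.9 to 59.8 TPM in floxed control LT-HSC. Of 8 megakaryocyte markers 7 were tested, 4 rose on deposited TPM and none after rescaling, and the sums of 382 to 519 TPM in knockout and 121 to 397 TPM in floxed control LT-HSC overlapped. Of 8 B cell markers 6 were tested, 2 rose on deposited TPM and none after rescaling, and the sum, mostly Igkc, was 366 to 891 TPM in knockout and 10.6 to 217 TPM in floxed control LT-HSC. Among these lists the neutrophil and B cell sums were thus apart on deposited TPM and the megakaryocyte sums were not. Of 7 monocyte and dendritic cell markers, 5 rose on deposited TPM and 1 after rescaling (360 to 386 TPM in knockout and 187 to 331 TPM in floxed control LT-HSC). Of 6 mast cell, basophil and eosinophil markers 5 were tested and 1 rose on either scale (15.8 to 44.3 TPM in knockout and 3.07 to 10.5 TPM in floxed control LT-HSC). Of 6 T and NK cell markers 3 were tested, and 2 rose on deposited TPM and none after rescaling (5.33 to 9.83 TPM in knockout and 2.02 to 5.35 TPM in floxed control LT-HSC). The monocyte and mast cell sums were apart and the T and NK cell sums met. Endothelial and stromal markers were low, with 3 of 10 and 3 of 7 tested, all of which rose on deposited TPM and 1 of each after rescaling. Their sums were apart, at 13.2 to 15.1 TPM in knockout and 4.32 to 8.91 TPM in floxed control LT-HSC for the endothelial list and 8.75 to 14.6 TPM in knockout and 3.13 to 4.34 TPM in floxed control LT-HSC for the stromal one. At 0 in every library were Gp6, Klrd1 and Ncr1 in both groups, Sox17 in knockout LT-HSC, and Bglap and Epx in floxed control LT-HSC. Their part in the differences of the 10 genes was not tested.

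**Figure D2:**
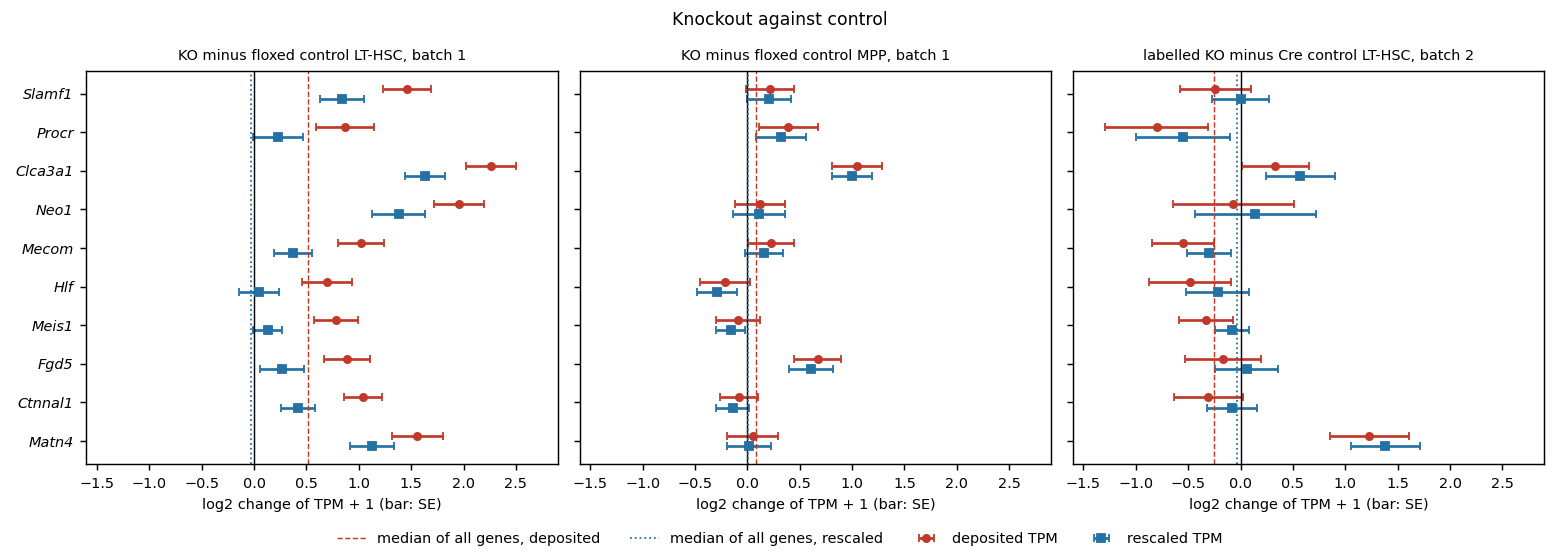
Log2 difference with its standard error of each of the 10 genes between knockout or labelled knockout and control cells, on deposited and on rescaled TPM, in LT-HSC and MPP of batch 1 and LT-HSC of batch 2; red circles are deposited and blue squares rescaled values, and dashed and dotted lines the median of all genes on each scale. In batch 1 LT-HSC all deposited values lie above the deposited median of 0.52, and in batch 2 Matn4 alone is far above 0.

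In MPP, none of the 10 genes passed the test between knockout and floxed control cells on deposited TPM, and Clca3a1 alone passed after rescaling. Clca3a1 had 2.58, 3.01 and 3.3 TPM in knockout MPP, against 0.751, 1.27 and 0.738 TPM in floxed control MPP. All knockout libraries were above all floxed control libraries, as they were in LT-HSC, at a far lower level. The log2 difference was 1.05 ± 0.24 (unadjusted p = 4.4e-04, limma adjusted p = 0.0896) on deposited TPM and 1.00 ± 0.19 (limma adjusted p = 0.0372) after rescaling. The share of all genes that rose was 0.0809% on deposited TPM and 0.128% after rescaling. The rescaled call for Clca3a1 was lost whichever of the 6 MPP libraries was left out, knockout library 1 (limma adjusted p = 0.0734), 2 (0.114) or 3 (0.19), or floxed control library 1 (0.17), 2 (0.0638) or 3 (0.101).

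Clca3a1, Neo1 and Fgd5 were the 3 genes of the 10 whose knockout MPP libraries all lay above the floxed control MPP libraries, where 12.5% of all genes did. Fgd5 had 3.24, 3.68 and 5.15 TPM in knockout MPP, against 2.62, 2.2 and 1.61 TPM in floxed control MPP, and its log2 difference of 0.67 ± 0.22 did not pass (limma adjusted p = 0.369). Neo1 was at 0.136, 0.129 and 0.248 TPM in knockout MPP, against 0.125, 0.0655 and 0.0511 TPM in floxed control MPP, levels too low for a reliable fold change. The others differed by between -0.21 for Hlf and 0.39 for Procr on the log2 scale, and none passed (limma adjusted p = 1 for each).

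The difference in genotype effect between MPP and LT-HSC was tested as an interaction. None of the 10 genes passed on either scale, where 0.0741% of all genes fell on deposited TPM. Slamf1, Neo1 and Matn4 stayed under 1 TPM in every MPP library and entered the fit through LT-HSC alone. The added 1 holds their difference in MPP near 0, so their interaction mostly restates the LT-HSC difference and is not counted. Of the 7 other genes, which had 1 TPM in at least 3 MPP libraries, 5 had an unadjusted p under 0.05 on deposited TPM. Ctnnal1 was at -1.12 ± 0.26 (limma adjusted p = 0.0749) on deposited TPM and -0.56 (limma adjusted p = 0.348) after rescaling, and Meis1 at -0.87 ± 0.30 (limma adjusted p = 0.119) and -0.30 (limma adjusted p = 0.526). LT-HSC and MPP libraries share an identifier in their descriptions, such as KO1 or WT1. The values above come from a fit without pairing, and a further fit paired these libraries in a replicate block. With this replicate block, 5 of the 7 genes passed on deposited TPM, all with a smaller knockout effect in MPP than in LT-HSC, the exceptions being Procr and Fgd5. Their adjusted p values from limma ran from 0.03 for Ctnnal1 to 0.0497 for Mecom, and 9.04% of all genes passed in either direction. For Clca3a1 too, which was near 1 TPM in floxed control MPP, the added 1 reduces the difference in MPP. With the block and rescaling together, none of the 10 and none of all genes passed. The deposited scale shifts the median of all genes by -0.45 in this comparison, and rescaling leaves 0.04. Without the block, Hlf, Ctnnal1 and Meis1 passed without floxed control LT-HSC library 1, and Clca3a1, Ctnnal1 and Meis1 without knockout LT-HSC library 1. None of the 7 passed without any other library.

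The name stem cell identity genes was checked by setting MPP against LT-HSC, and all 10 genes had lower means in MPP in both genotypes. Slamf1, Neo1 and Matn4, which entered the test through LT-HSC alone, could only be lower in MPP, so the count is over the 7 other genes. In knockout cells all 7 fell on both scales, where 15.5% of all genes fell on deposited TPM and 11.3% after rescaling. In floxed controls 5 of the 7 fell on deposited TPM, where 5.62% of all genes did, and all 7 after rescaling, where 12.7% did. Clca3a1 is counted there although it averaged 0.919 TPM in floxed control MPP. It met the level of 1 TPM in 3 MPP libraries through knockout MPP, so its place in the floxed control counts carries that limit. Both comparisons are between sorted populations, and their tests did not pair the libraries unless the text says so. Whether CD150, EPCR or another protein of these genes served in the sort is not given in the sources used here, and the difference of a gene used in the sort is no finding.

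On the log2(TPM + 1) scale Slamf1 showed the largest difference, while by the ratio of mean TPM it was Neo1, with 0.171 TPM in MPP and 19.1 TPM in LT-HSC of knockouts, and 0.0805 TPM in MPP and 4.3 TPM in LT-HSC of floxed controls. The values of Slamf1 were 0.768, 0.423 and 0.519 TPM in knockout MPP, against the 29.6 to 39.3 TPM of knockout LT-HSC, and 0.181, 0.244 and 0.637 TPM in floxed control MPP, against the 9.32 to 16.4 TPM of floxed control LT-HSC. The log2 difference between MPP and LT-HSC was -4.44 in knockouts and -3.21 ± 0.23 in floxed controls. No p is given for it, because Slamf1 entered the fit through LT-HSC alone. Clca3a1 differed by -4.14 in knockouts (limma adjusted p = 2.0e-08) and by -2.94 in floxed controls (limma adjusted p = 6.0e-07). In floxed control MPP Clca3a1 averaged 0.919 TPM, so there too the value in MPP was near the floor. Neo1 was all but absent from MPP and differed by -4.08 in knockouts and by -2.24 in floxed controls, given without p for the same reason as Slamf1. Procr kept a level of 8.8 to 12.2 TPM in knockout MPP and 6.14 to 9.27 TPM in floxed control MPP, and differed by -2.52 in knockouts and -2.04 in floxed controls.

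The transcription factor genes were lower in MPP by less. Mecom had 39.2, 43.7 and 43.8 TPM in knockout MPP and 46.3, 35.7 and 27.7 TPM in floxed control MPP, and differed by -1.99 in knockouts (limma adjusted p = 1.2e-05) and -1.20 in floxed controls (limma adjusted p = 0.00135). Hlf had 49.4, 61.2 and 54.3 TPM in knockout MPP, below every knockout LT-HSC library, and 76.5, 59.6 and 56.5 TPM in floxed control MPP, which overlapped floxed control LT-HSC. It fell by 1.37 on the log2 scale in knockouts (limma adjusted p = 8.4e-04), while in floxed controls the difference was -0.45 ± 0.24 (limma adjusted p = 0.193) on deposited TPM and -0.75 (limma adjusted p = 0.0125) after rescaling. Meis1 had 60.1, 80 and 69.4 TPM in knockout MPP and 77.7, 73.2 and 70.9 TPM in floxed control MPP. It fell by 1.16 in knockouts (limma adjusted p = 9.3e-04), and in floxed controls differed by -0.29 ± 0.21 (limma adjusted p = 0.334) on deposited TPM and -0.59 (limma adjusted p = 0.00799) after rescaling.

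Fgd5 differed between MPP and LT-HSC by -2.42 in knockouts and -2.19 in floxed controls, and Ctnnal1 by -2.51 in knockouts and -1.39 in floxed controls. Ctnnal1 was at 2.82, 3.67 and 4.15 TPM in knockout MPP and 3.6, 3.99 and 3.72 TPM in floxed control MPP, so that the 2 MPP groups overlapped although the LT-HSC groups did not. Matn4 was at 0.291, 0.826 and 0.696 TPM in knockout MPP and 0.512, 0.5 and 0.576 TPM in floxed control MPP. It fell by 1.98 on the log2 scale in knockouts, while in floxed controls, where LT-HSC too had little, it differed by -0.47 ± 0.24 (limma adjusted p = 0.165). Matn4 too entered the fit through LT-HSC alone, so neither value is counted. After rescaling, Matn4 fell by 0.63 in floxed controls (limma adjusted p = 0.0463), which is not counted either. This last call was lost with the pairing of MPP and LT-HSC libraries in the fit (limma adjusted p = 0.0636) and without any one of the 6 libraries (0.0622 to 0.123). In floxed controls 5 of the 7 genes with 1 TPM in at least 3 MPP libraries had all MPP libraries below all LT-HSC libraries, where 8.55% of all genes did, the exceptions being Hlf and Meis1. The 5 include Clca3a1, which met that level through knockout MPP. In knockouts all 7 did, where 29.9% of all genes did.

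**Figure D3:**
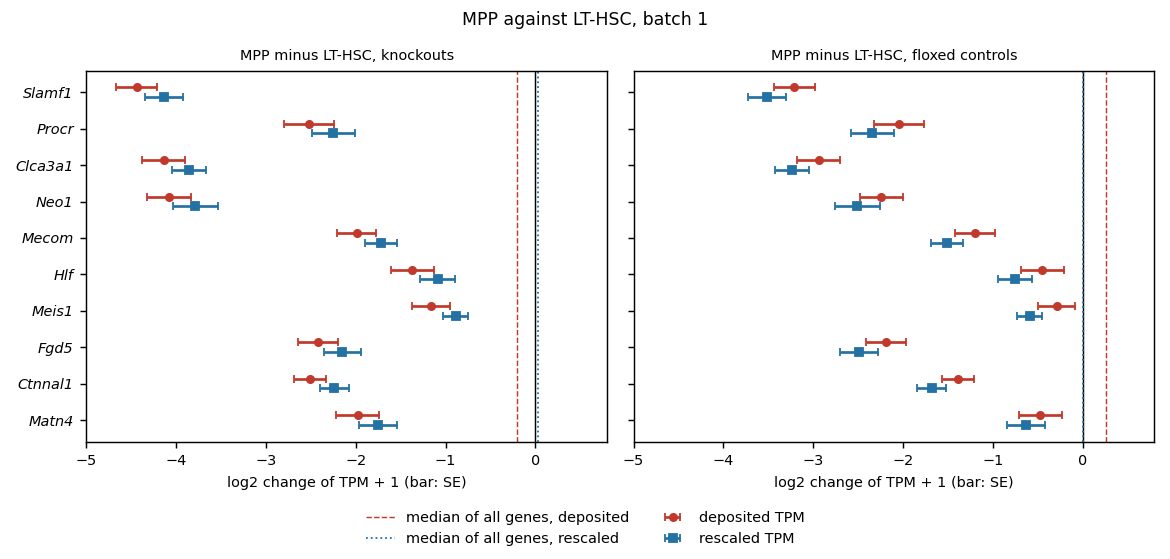
Log2 difference between MPP and LT-HSC with its standard error for each of the 10 genes, in knockouts (left) and in floxed controls (right), on deposited TPM (red circles) and rescaled TPM (blue squares), with the median of all genes as lines. On this scale of log2(TPM + 1), which compresses genes near 0 such as Neo1 in MPP, Slamf1 lies lowest in both panels, and Hlf, Matn4 and Meis1 in floxed controls lie nearest to 0.

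In batch 2, where the labelled knockouts stood against Cre controls, none of the 10 genes passed the test, and Matn4 was the only one whose labelled knockout libraries all lay above the Cre controls. Matn4 had 4.59, 2.15 and 7.73 TPM in the libraries labelled knockout, against 1.71, 1.34 and 0.898 TPM in Cre control LT-HSC. The margin was narrow for library 5, and the log2 difference was 1.23 ± 0.38 (unadjusted p = 0.00679, limma adjusted p = 0.705) on deposited TPM and 1.38 (limma adjusted p = 0.698) after rescaling. Over all genes, 0.00744% rose and 0.0669% fell, and 3.95% had all labelled knockout libraries above all Cre controls (7.92% after rescaling, where Matn4 was again the only one of the 10).

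The other 9 genes overlapped between the labelled knockouts and Cre controls. Slamf1 had 16.6, 16.3 and 34.7 TPM in the libraries labelled knockout, against 26.5, 25.2 and 23.9 TPM in Cre control LT-HSC, so that the lowest and the highest values were both in labelled knockouts. Procr had 17.3, 16.9 and 64.1 TPM in the libraries labelled knockout, against 49.5, 52.1 and 40.6 TPM in Cre controls. Neo1 had 3.7, 4.92 and 19 TPM in the libraries labelled knockout, against 10.6, 10.3 and 3.92 TPM in Cre controls. In all 3 genes, labelled knockout library 6 lay well above libraries 4 and 5. Clca3a1 had 28.9, 26 and 30.3 TPM in the libraries labelled knockout, against 33.3, 25.8 and 12.8 TPM in Cre controls, and its log2 difference was 0.33. Over the 9 genes the log2 difference ran from -0.80 for Procr to 0.33 for Clca3a1, and the median of all genes was -0.25.

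Mycl-allele LT-HSC, which by their titles carry 1 floxed Mycl allele beside those of Rxra and Rxrb, were set against the same Cre controls. The values that follow thus share their controls with those just given. Mycl averaged 0.108 TPM in Mycl-allele and 0.133 TPM in Cre control LT-HSC. Myc had 57.6 to 130 TPM in Mycl-allele and 140 to 143 TPM in Cre control LT-HSC. Such a lower range without overlap was seen in 11.9% of all genes. Which of these genes was floxed was not tested. None of the 10 genes passed, where 0.0298% of all genes rose. Matn4 had 6.11, 6.22 and 5.36 TPM in Mycl-allele LT-HSC, against 1.71, 1.34 and 0.898 TPM in Cre control LT-HSC. The Mycl-allele libraries were close to each other and all well above the Cre controls, and the log2 difference was 1.59 ± 0.38 (limma adjusted p = 0.337) on deposited TPM and 1.70 (limma adjusted p = 0.191) after rescaling. Without Mycl-allele library 1 Matn4 passed on both scales (limma adjusted p = 0.0481 on deposited TPM and 0.0359 after rescaling), while leaving out any other library gave 0.571 to 0.81 on deposited TPM. Fgd5 was the second gene without overlap on deposited TPM, a pattern seen in 3.91% of all genes, with 22.4, 13.6 and 14.2 TPM in Mycl-allele LT-HSC, against 12.1, 12.3 and 12.2 TPM in Cre controls. After rescaling Clca3a1 and Mecom joined them, where 6.42% of all genes had this pattern.

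Clca3a1 had 40.7, 32.5 and 48.6 TPM in Mycl-allele LT-HSC, against the 12.8 to 33.3 TPM of Cre controls, and Neo1 had 27.1, 7.67 and 27.8 TPM in Mycl-allele LT-HSC, against the 3.92 to 10.6 TPM of Cre controls. Both ranges overlapped on deposited TPM, and the log2 differences of 0.81 for Clca3a1 and 1.15 ± 0.58 for Neo1 did not pass (limma adjusted p = 0.503 for each). Mycl-allele library 2 stood apart from libraries 1 and 3 in Slamf1, Procr and Neo1, with 14.5, 18.8 and 7.67 TPM. It was also the Mycl-allele library at 0 for the exon-skipping Rxra junction, and a link between these values and the junction was not tested. For Matn4 it had the highest value of its group, 6.22 TPM. Labelled knockout library 6, also at 0 for the junction, had 34.7, 64.1 and 19 TPM of Slamf1, Procr and Neo1. Between Mycl-allele LT-HSC and the libraries labelled knockout no gene of the whole table passed (0%). Clca3a1, with a log2 difference of 0.49, was the only one of the 10 whose Mycl-allele values all lay above the labelled knockout values, where 2.58% of all genes did.

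Across both batches, Matn4 was the one gene of the 10 that passed when all knockout and labelled knockout LT-HSC were set against all control LT-HSC with the batch in the fit. Its log2 difference was 1.40 ± 0.25 (limma adjusted p = 0.0427) on deposited TPM, where 0.4% of all genes rose, and 1.27 (limma adjusted p = 0.062) after rescaling, where 0% did. Every one of the 6 knockout or labelled knockout libraries was above every one of the 6 controls, the lowest being 2.15 TPM in labelled knockout library 5 and the highest control 1.71 TPM in Cre control library 4. This was so for none of the other 9, and for 0.4% of all genes on deposited TPM and 0.359% after rescaling. On deposited TPM the Matn4 call was lost without knockout library 2 (limma adjusted p = 0.0972) or 3 (0.0889), without floxed control library 1 (0.0664), 2 (0.131) or 3 (0.0521), and without Cre control library 4 (0.0515) or 5 (0.0524). Without labelled knockout library 5 or 6 there were 2 genes, Clca3a1 (limma adjusted p = 0.044 or 0.0315) beside Matn4. After rescaling Matn4 passed without knockout library 1 (0.0488) or labelled knockout library 6 (0.0202). Clca3a1 came next, at 1.29 (limma adjusted p = 0.0587) on deposited TPM and 1.12 (limma adjusted p = 0.0861) after rescaling.

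The effect of genotype differed between the batches for 2 of the 10 genes on deposited TPM, where 1.24% of all genes had a lower effect in batch 2, and for none after rescaling. For Slamf1 the batch 2 effect minus the batch 1 effect was -1.70 ± 0.41 (limma adjusted p = 0.0477) on deposited TPM and -0.90 (limma adjusted p = 0.364) after rescaling. For Clca3a1 it was -1.93 ± 0.44 (limma adjusted p = 0.0416) on deposited TPM and -1.11 (limma adjusted p = 0.393) after rescaling. For Matn4 the difference between batches was -0.34 ± 0.48 (limma adjusted p = 0.562) on deposited TPM and 0.24 (limma adjusted p = 0.895) after rescaling, which does not show that the effects were equal. The deposited count of 2 ran from 0 to 9 when single libraries were left out. Slamf1 lost its call on deposited TPM without labelled knockout library 4 or 5, floxed control library 2 or 3, any of the 3 Cre control libraries, or knockout library 2 or 3 (limma adjusted p of 0.0756 to 0.141). Clca3a1 lost its call without labelled knockout library 4 or 5, floxed control library 2, Cre control library 4 or 5, or knockout library 2 or 3 (limma adjusted p of 0.058 to 0.141). Leaving out labelled knockout library 6 gave 9 genes, all but Matn4, and leaving out floxed control library 1 gave 8.

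Between batches within a genotype, 6 of the 10 genes were lower in labelled knockout LT-HSC of batch 2 than in knockout LT-HSC of batch 1 on deposited TPM, where 25.4% of all genes were, and 1, Mecom, after rescaling, where 10% were. The deposited count of 6 became 2 without labelled knockout library 4, 3 without library 5, 3 without knockout library 2 and 1 without knockout library 3. Mecom had 69.6, 51.4 and 120 TPM in the libraries labelled knockout in batch 2, against the 136 to 193 TPM of knockout LT-HSC in batch 1. The rescaled Mecom difference was -0.64 (limma adjusted p = 0.0339), and it was lost without labelled knockout library 4 (0.0791) or 5 (0.0951), or knockout library 2 (0.101) or 3 (0.134). Between the controls, Slamf1 was higher in Cre control LT-HSC of batch 2 than in floxed control LT-HSC of batch 1 on both scales. It had 26.5, 25.2 and 23.9 TPM in Cre controls, against 16.4, 9.59 and 9.32 TPM in floxed controls. Its log2 difference was 1.08 ± 0.29 (limma adjusted p = 0.0204), where 12% of all genes rose, and 0.78 (limma adjusted p = 0.0295) after rescaling, where 9.12% did. The call was lost on both scales without any library other than floxed control library 1 (limma adjusted p of 0.0533 to 0.0761 on deposited TPM). On deposited TPM the Cre control level of Slamf1 thus lay between the 2 groups of batch 1. After rescaling it was 22.1 to 25.4 TPM, within the 20.8 to 29.3 TPM of knockout LT-HSC and above the 10.1 to 17 TPM of floxed control LT-HSC. Neither the Cre transgene nor the batch can be told apart from the other here. Matn4 differed by 0.11 between the controls on deposited TPM and by -0.05 after rescaling.

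**Figure D4:**
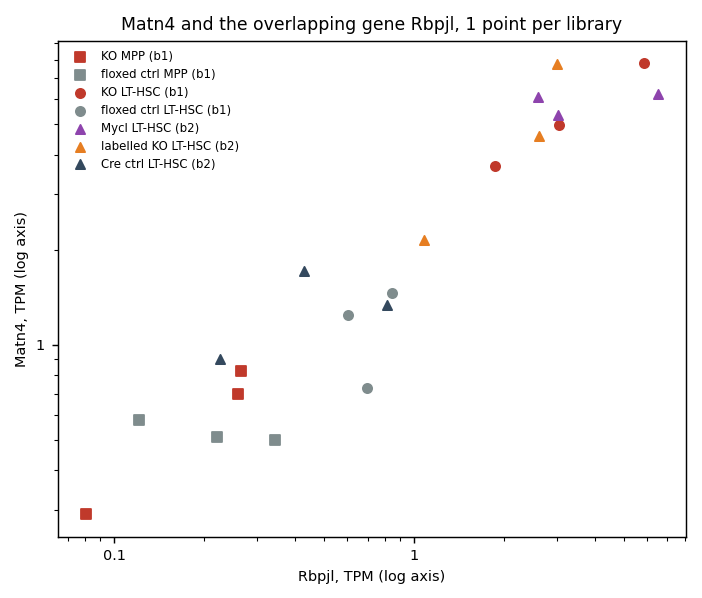
Deposited TPM of Matn4 (vertical log axis) against the overlapping gene Rbpjl (horizontal log axis), 1 point for each of 21 libraries, coloured by group. For both genes the knockout, Mycl-allele and labelled knockout LT-HSC libraries lie above all control LT-HSC libraries.

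Genes whose log2(TPM + 1) profile was most like that of each of the 10 were ranked by Pearson's r over the 21 libraries, among 15340 genes. These r are descriptions, since the libraries fall into LT-HSC and MPP, share scale and batch, and are therefore not independent points. For Matn4 the likest gene was Rbpjl (r = 0.951), followed by Gcnt1 (0.909) and Gpx8 (0.903). Rbpjl encodes a paralog of the Notch effector RBPJ and overlaps Matn4 on chromosome 2 by 2080 bases, from 164403081 to 164405160. The labels do not state that strand was kept in the libraries, so reads from the overlap of Matn4 and Rbpjl cannot be told apart. Rbpjl had 3.05, 1.86 and 5.83 TPM in knockout LT-HSC, against 0.844, 0.696 and 0.601 TPM in floxed control LT-HSC. In batch 2 it had 2.59, 6.5 and 3.02 TPM in Mycl-allele LT-HSC and 2.61, 1.08 and 3 TPM in the libraries labelled knockout, against 0.429, 0.814 and 0.226 TPM in Cre control LT-HSC. Rbpjl was thus above all control LT-HSC in all of these libraries, as Matn4 was.

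The profiles nearest to the surface genes were Pdzk1ip1 for Slamf1 (r = 0.988), Syde1 for Procr (0.977), Rhoj for Clca3a1 (0.980) and Cysltr2 for Neo1 (0.974). Those nearest to the transcription factors were Ttc39b for Mecom (0.968), Nynrin for Hlf (0.924) and Prkg1 for Meis1 (0.966). Vdr, the vitamin D receptor and a partner of RXR, was nearest to Fgd5 (0.960) and the second for Procr (0.968). Vwf, a gene of platelet-primed stem cells, was nearest to Ctnnal1 (0.971) and the third for Clca3a1 (0.962). Among the 10 themselves, Slamf1 and Neo1 had r = 0.94 over the 21 libraries and 0.79 over the 15 LT-HSC libraries. Clca3a1 and Matn4 had 0.83 over all 21 and 0.76 over the LT-HSC libraries. Ctnnal1 and Slamf1 dropped to 0.37 over the LT-HSC libraries, against 0.96 over all 21, and Clca3a1 and Hlf to -0.34, against 0.64.

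The splice table held 41 events in 8 of the 10 genes, 12 of them in Mecom and 10 in Neo1. Clca3a1 and Matn4 had none. Each event is a percent-spliced-in value given as a fraction (PSI), the share of reads that use a junction. No event of the 10 genes passed limma with a difference of at least 0.1 in any comparison within a batch. Of all events, 0.0611% were higher and 0.0661% lower in knockout than in floxed control LT-HSC, 0.12% higher and 0.125% lower in MPP than in LT-HSC of knockouts, and 0.186% higher and 0.216% lower in MPP than in LT-HSC of floxed controls. The other comparisons within a batch had between 0.00395% and 0.0636% in a given direction. In Mecom, the junction of the downstream start (chr3:30009897-30012542) had PSI 0.153, 0.18 and 0.237 in knockout MPP, against 0.41, 0.341 and 0.475 in knockout LT-HSC. In floxed controls it had 0.186, 0.121 and 0.273 in MPP, against 0.407, 0.42 and 0.333 in LT-HSC. The MPP values lay below the LT-HSC values in both genotypes, and the difference was -0.218 ± 0.051 in knockouts (limma adjusted p = 0.176) and -0.193 ± 0.051 in floxed controls (unadjusted p = 0.00312, limma adjusted p = 0.175). The promoter window of this start is the Mecom one with matches to AGGTCA and TGACAG, which stood in 14% and 15.9% of all promoter windows. Whether these matches bear on the use of this start was not tested.

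For the Mecom junction that joins the same acceptor to an exon of the upstream transcript (chr3:30009897-30237978), PSI was 0.833, 0.526 and 0.688 in knockout MPP, against 0.369, 0.368 and 0.268 in knockout LT-HSC. It was 0.486, 0.829 and 0.727 in floxed control MPP, against 0.489, 0.427 and 0.473 in floxed control LT-HSC, with an overlap of 1 library. These differences of 0.347 in knockouts and 0.218 in floxed controls did not pass (limma adjusted p = 0.245 and 0.41). Between genotypes the downstream junction differed by 0.022 in LT-HSC (limma adjusted p = 0.935) and by -0.003 in MPP (limma adjusted p = 1). In Mycl-allele LT-HSC its PSI was 0.497, 0.074 and 0.592, in the libraries labelled knockout 0.386, 0.604 and 0.473, and in Cre controls 0.501, 0.363 and 0.303, where Mycl-allele library 2 was the lowest of all LT-HSC libraries.

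Between the batches, 4 of the 36 splice events tested in the 10 genes passed between labelled knockout LT-HSC of batch 2 and knockout LT-HSC of batch 1. This is near the share of all events, of which 3.79% were higher and 5.63% lower in batch 2, and is not a result about these genes. Between Cre control and floxed control LT-HSC none of the 36 passed, where 1.8% of all events were higher and 3% lower in batch 2. Retention of a Mecom intron at chr3:30237971-30237972 had PSI 0, 0 and 0 in the libraries labelled knockout in batch 2, against 0.283, 0.378 and 0.436 in knockout LT-HSC of batch 1 (difference -0.366, limma adjusted p = 4.2e-04). It had 0, 0.0488 and 0 in Cre control LT-HSC, against 0.144, 0.151 and 0.229 in floxed control LT-HSC, without overlap, and this difference of -0.158 did not pass (limma adjusted p = 0.072). One event each of Hlf (0.155, limma adjusted p = 0.031), Ctnnal1 (0.182, 0.0153) and Meis1 (0.203, 0.0305) was higher in batch 2.

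**Figure D5:**
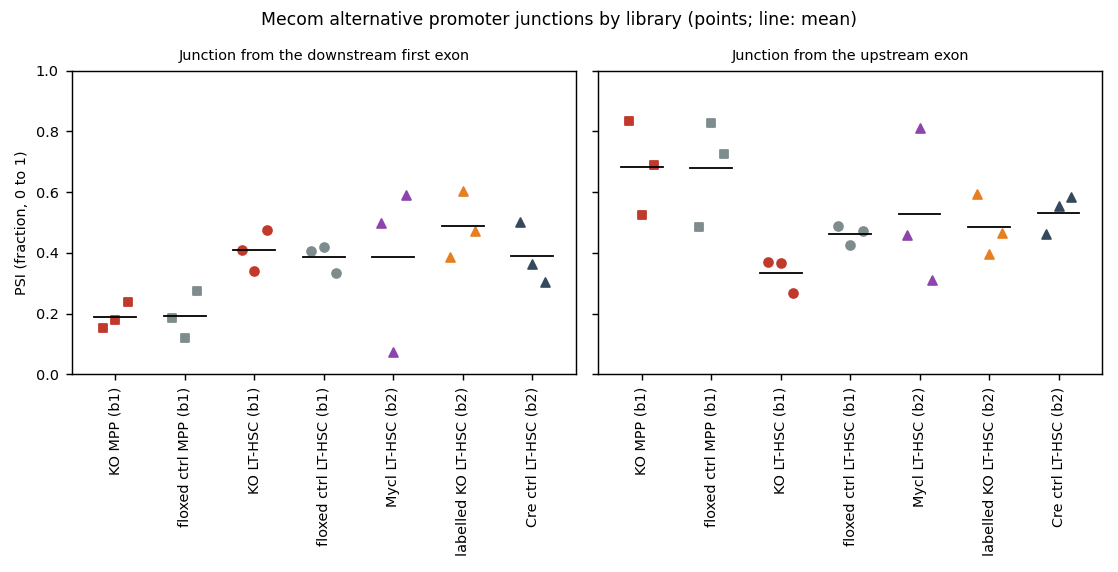
PSI of the Mecom junctions from the downstream start and from the upstream transcript in each of 21 libraries, points, with group means, lines. In batch 1 the mean PSI of the downstream junction is lower, and that of the upstream one higher, in MPP than in LT-HSC. The upstream values overlap in floxed controls, and none of these differences passed the test.

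Other genes of the same identity and of the same families were read from lists. Of 29 other LT-HSC genes, 18 rose in knockout LT-HSC against floxed control LT-HSC on deposited TPM and none fell, which is 62.1% against 44.6% of all genes. Their median log2 difference was 0.68 on deposited TPM and 0.07 after rescaling, against 0.52 and -0.03 over all genes. After rescaling 3 rose, where 2.2% of all genes did, Hoxb5 by 1.25 (limma adjusted p = 0.0162), Vwf by 0.93 (limma adjusted p = 0.0325) and Hoxb4 by 0.75 (limma adjusted p = 0.0379), and Robo4 fell by 0.73 (limma adjusted p = 0.0311). Hoxb5 and Hoxb4 encode homeodomain factors of stem cells and Robo4 a guidance receptor. Between MPP and LT-HSC, 26 of these 29 fell in knockouts on deposited TPM, where 15.5% of all genes fell, and 21 in floxed controls, where 5.62% did, with Vwf at -4.23 in knockouts. Of 13 MPP genes, 12 rose in knockout MPP against knockout LT-HSC, where 3.99% of all genes rose, and all 13 in floxed control MPP against floxed control LT-HSC, where 15.5% did. In either MPP group 26 of the 29 LT-HSC genes reached 1 TPM in a library, and in either LT-HSC group of batch 1 10 of the 13 MPP genes did. At least the rest thus entered the test through the group where they are high and could only differ in that direction. The filter asked for 3 libraries, so more genes may be of this kind, and the counts between cell types include them. Whether genes of these lists, such as Cd48 and Flt3, served in the sort is not given in the sources used here.

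Of 45 relatives and binding partners of the 10 genes, 28 reached the level needed for the test. In knockout LT-HSC against floxed control LT-HSC, 10 of the 28 rose on deposited TPM, which is 35.7% and below the 44.6% of all genes, with a median of 0.47 against 0.52 over all genes. The single values that follow are therefore no sign of a rise of these relatives as a list. None rose after rescaling, while Ctbp1, a corepressor that binds EVI1, fell by 0.69 after rescaling (limma adjusted p = 0.0311). Meis2, a paralog of Meis1, rose by 1.11 on deposited TPM (limma adjusted p = 0.00691) and was at 0.65 after rescaling (limma adjusted p = 0.0649). Prdm16, a paralog of Mecom, was at 0.68 (limma adjusted p = 0.0514). Fgd4 and Fgd2, paralogs of Fgd5, rose by 1.28 (limma adjusted p = 0.00654) and 1.09 (limma adjusted p = 0.00985). Cxcr4, the homing receptor that Matn4 is linked to in mice, rose by 0.79 (limma adjusted p = 0.0101), and Thbd, thrombomodulin, which works with the product of Procr, rose by 0.70 (limma adjusted p = 0.0333). None of these passed after rescaling. Cd48, the SLAM-family gene whose protein is absent from LT-HSC, differed by 5.35 between knockout MPP and knockout LT-HSC and by 5.12 between floxed control MPP and floxed control LT-HSC, opposite in sign to its relative Slamf1. Whether CD48 or CD150 served in the sort is not given in the sources used here, and the difference of a gene used in the sort is no finding.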

How the data were processed

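Bulk RNA sequencing of LT-HSC and MPP sorted from pooled mouse bone marrow was made by the authors from 5 ng of total RNA, amplified with Ovation RNA-seq and tagged with Nextera XT, per the labels' protocols. Gene values are TPM as deposited by the authors, and kallisto, STAR 2.6 and build mm10 are named in the submitters' processing notes without a role. Splice values are fractions (PSI) deposited by the authors for 46443 events. The depth reached per library is not given, so no counting intervals were computed.

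Identifiers were matched to symbols by the reference gene tables (27458 of 28987, 94.73%). Tests used limma 3.58.1 (R 4.3.3) with a mean-variance trend on log2(TPM + 1), over genes of at least 1 TPM in 3 libraries of the fit, with Benjamini-Hochberg adjustment over all genes and calls at 0.05. The fits held the 12 libraries of batch 1, the 9 of batch 2, or 12 LT-HSC libraries of both batches without the Mycl-allele group. All 10 genes passed the filter in these fits, in batch 1 Slamf1, Neo1 and Matn4 through LT-HSC alone. In fits of 2 groups alone these 3 did not pass in MPP, nor Matn4 in floxed controls. PSI was tested by limma on events with a value in every library of the fit, and called at 0.05 and a difference of 0.1. Scripts were tested on simulated data. Tables and figures used Python 3.11.15, pandas 2.3.3, numpy 2.4.6 and matplotlib 3.10.9.

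Named genes were the 10 genes, the 3 likest genes for Matn4 and the likest for the others, and members of gene lists that passed a test or are direct relatives. The genes, lists and tests were chosen with earlier results of these data known. Groups came from the sample titles. LT-HSC and MPP libraries with one identifier in their descriptions were paired in the replicate block only, and all tests given without the block were unpaired. Same-identifier deviations from the group means correlated at r = 0.540, 0.158 and 0.273 in knockouts and 0.075, 0.050 and 0.080 in floxed controls. The labels tie no library to single animals, so p-values measure only the spread between these libraries. The alternatives were rescaling, a scale without ENSMUSG00000089855, a pseudocount of 0.1, no filter, fits of 2 groups alone, a replicate block, a stricter PSI difference of 0.2 and leaving out each library. Of these, rescaling together with the block or with a left-out library was chosen after seeing the data. The protein sequences were not used here.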

Additional observations from a re-analysis of the deposited data

Results flagged for a closer look

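The effect of genotype on Slamf1 and on Clca3a1 differed between the batches in a test of the difference itself. For Slamf1 the effect in batch 2 (labelled knockout against Cre control LT-HSC) minus the effect in batch 1 (knockout against floxed control LT-HSC) was -1.70 on the log2 scale of deposited TPM, made up of -0.24 in batch 2 and 1.46 in batch 1 in their own fits. For Clca3a1 it was -1.93, made up of 0.33 in batch 2 and 2.26 in batch 1. Both calls were absent after rescaling (limma adjusted p = 0.364 for Slamf1 and 0.393 for Clca3a1), and the control genotype and the Rxra junction differ between the batches as well, so that their parts cannot be told apart.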

How the results depend on the processing

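Counts of the 10 genes past the test moved as follows. In knockout against floxed control LT-HSC, 10 became 4 with rescaling and 6 without ENSMUSG00000089855 in the scale, and 6 to 10 when single libraries were left out (1 to 4 after rescaling). In MPP, 0 became 1 with rescaling, with a pseudocount of 0.1 or in a fit of the 2 groups alone, and stayed 0 without any 1 library. Between MPP and LT-HSC, leave-one-out counts were 7 in floxed controls (9 after rescaling) and 10 in knockouts. For the interaction of genotype and cell type, the replicate block gave 8 and leave-one-out 0 to 6. The counts between cell types and for this interaction include Slamf1, Neo1 and Matn4, which are under 1 TPM in MPP. In batch 2 leave-one-out gave 0 for labelled knockouts against Cre controls, 0 to 1 for Mycl-allele cells against Cre controls and 0 for Mycl-allele cells against labelled knockouts.

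Over both batches, 1 became 0 with rescaling, with a pseudocount of 0.1 or without the filter, 2 with the replicate block (0 with block and rescaling), and 0 to 2 in leave-one-out. The batch interaction count of 2 became 0 with rescaling, without ENSMUSG00000089855, with a pseudocount of 0.1 or without the filter, and 0 to 9 in leave-one-out. Between batches, the labelled knockout count of 6 became 1 with rescaling and 1 to 8 in leave-one-out, and the control count of 1 became 0 without ENSMUSG00000089855 or the filter and 0 to 3 in leave-one-out. The 4 splice events called between batches became 2 at a difference of 0.2 and 2 to 5 in leave-one-out, and the batch interaction of splice events gave 0 to 1. The cause of these moves was not tested, apart from the smaller number of libraries in leave-one-out.

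Matn4 changed sign where it was small: to 0.24 (batch interaction) and 0.19 (labelled knockout between batches) with rescaling, and to -0.05 between the controls with rescaling and without ENSMUSG00000089855. When single libraries were left out it ran from -0.05 to 0.20 between genotypes in MPP, -0.02 to 0.71 between Mycl-allele and labelled knockout cells, -0.69 to 0.04 in the batch interaction, -0.58 to 0.16 for labelled knockouts between batches and -0.03 to 0.25 between the controls. Of the other values of single genes, 258 of those in leave-one-out and 214 of those under other settings kept direction and side of the threshold, while 56 and 37 lost the call and 3 and 9 gained it.

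Knockout and control libraries share only a number (r of same-number deviations 0.280, 0.075 and -0.046 in LT-HSC, -0.044, 0.096 and 0.049 in MPP, and -0.025, -0.012 and -0.142 in batch 2). The replicate block left 10, 0, 7, 10 and 0 genes in the comparisons of genotype in LT-HSC and in MPP, of cell type in floxed controls and in knockouts, and of genotype in batch 2. No paired analysis was possible because numbers are not shared in comparisons between batches and with the Mycl-allele group. Depth is unknown, so the precision of genes near 1 TPM, such as Matn4 in controls and Neo1 in MPP, could not be set.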

Other observations

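Noncoding transcripts within the loci of the 10 genes were measured too. Mecomos, within Mecom, had 5.35, 11.4 and 12.1 TPM in knockout LT-HSC, against 2.44, 2.62 and 2.61 TPM in floxed control LT-HSC. Gm16141, within Meis1, had 5.29, 7.14 and 13.3 TPM in knockout LT-HSC, against 2.45, 2.14 and 1.8 TPM in floxed control LT-HSC. Gm10258, within Mecom, had 1.44, 3.72 and 3.85 TPM in knockout LT-HSC, against 0.745, 0.789 and 1.01 TPM in floxed control LT-HSC. All 3 lay above the floxed controls in every knockout library on deposited TPM, as 48.2% of all genes did, and without strand their reads cannot be told apart from those of Mecom and Meis1.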
